A study of Mus musculus with 8 samples.

Results

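NADPH oxidases are membrane enzymes that pass electrons from NADPH to oxygen and so make superoxide or hydrogen peroxide. The genes described here encode 6 subunits of these enzymes, of 12393 genes on the array with a symbol of their own, measured by every probe set whose platform annotation names 1 of them as its sole gene symbol. That gave 8 probe sets of the 20380 with a single symbol: 1 each for Cybb, Cyba, Ncf4 and Rac2, and 2 each for Ncf1 and Nox4. The samples were 8 Affymetrix arrays of diaphragm, the main muscle of breathing, from mice of 8 weeks of age. The 4 normal pools came from control mice for the dy/dy strain, whose genetic background the labels do not give. The 4 dystrophic pools came from dy/dy mice, a model of muscular dystrophy through deficiency of a laminin chain. Each pool held muscle of 3 mice, 12 mice a group, so the spread between single mice is hidden.

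The phagocyte oxidase works in macrophages and neutrophils. Its membrane part joins the catalytic subunit gp91phox (Cybb) to the small partner p22phox (Cyba), and on activation it is met by cytosolic subunits, among them p47phox (Ncf1) and p40phox (Ncf4), and by the small GTPase Rac2 of blood cells. Nox4 is a relative of gp91phox found in cells that are not phagocytes, among them fibroblasts, vascular cells and muscle. It makes mainly hydrogen peroxide, needs p22phox, and works without the cytosolic subunits.

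Values are MAS5 signals, a linear measure of probe brightness, after every array was set to 1 common trimmed mean. Log2 differences and tests use log2(signal + 16), always as dystrophic minus normal. Folds are ratios of the mean signals, without the offset. The dimmest 40% of probe sets, ranked on mean log2 value, went untested, which left 5 of the 8 probe sets among 13575 tested. A probe set was called at an adjusted p under 0.05 from limma, with Benjamini-Hochberg adjustment over all 13575. Median signals of the arrays lay between 172 and 207. Lama2, the laminin chain deficient in this strain, fell from 846 ± 101 in the normal group to 270.0 ± 46.1 in the dystrophic group (SD, n = 4), by -1.60 on the log2 scale (limma adjusted p = 8.91e-04). All 9 skeletal muscle markers were detected, Acta1 with a mean signal of 25850 in normal and 22155 in dystrophic pools. Transcripts of liver, which adjoins the diaphragm, stood apart in dystrophic replicate 3: the summed signal of 6 hepatocyte markers was 49644 there, 1565 to 5838 in the other dystrophic pools and 1052 to 3233 in normal pools. The highest signal of the TrpnX negative controls was 32.2.

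Cyba and Nox4 were called higher in dystrophic diaphragm, and the other tested subunits were not called. The Nox4 call did not hold with no filter on dim probe sets or with any 1 array left out. Cyba, the partner that both oxidases need, was 2.16-fold higher by mean signal, and the brighter Nox4 probe set 2.20-fold. Cybb, Ncf4 and Rac2 had log2 differences of 0.46, 0.49 and 0.11 and did not pass. Both Ncf1 probe sets and the dimmer Nox4 probe set were too dim to be tested. In RNA of whole muscle, more cells of a type and more RNA per cell cannot be told apart. Among all tested probe sets, 0.457% were called higher, 0.0368% lower, and 47.7% had a log2 difference above 0, as did the 5 tested ones of the oxidase. The 3 untested ones also lay above 0. Neither the count of tested members nor the passing of Nox4 into the test is support in itself, because the brighter Nox4 probe set passed the filter through the dystrophic arrays. Its mean log2 value was 6.75 in normal and 7.75 in dystrophic pools, and the filter lay at 7.11.

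**Figure D1:**
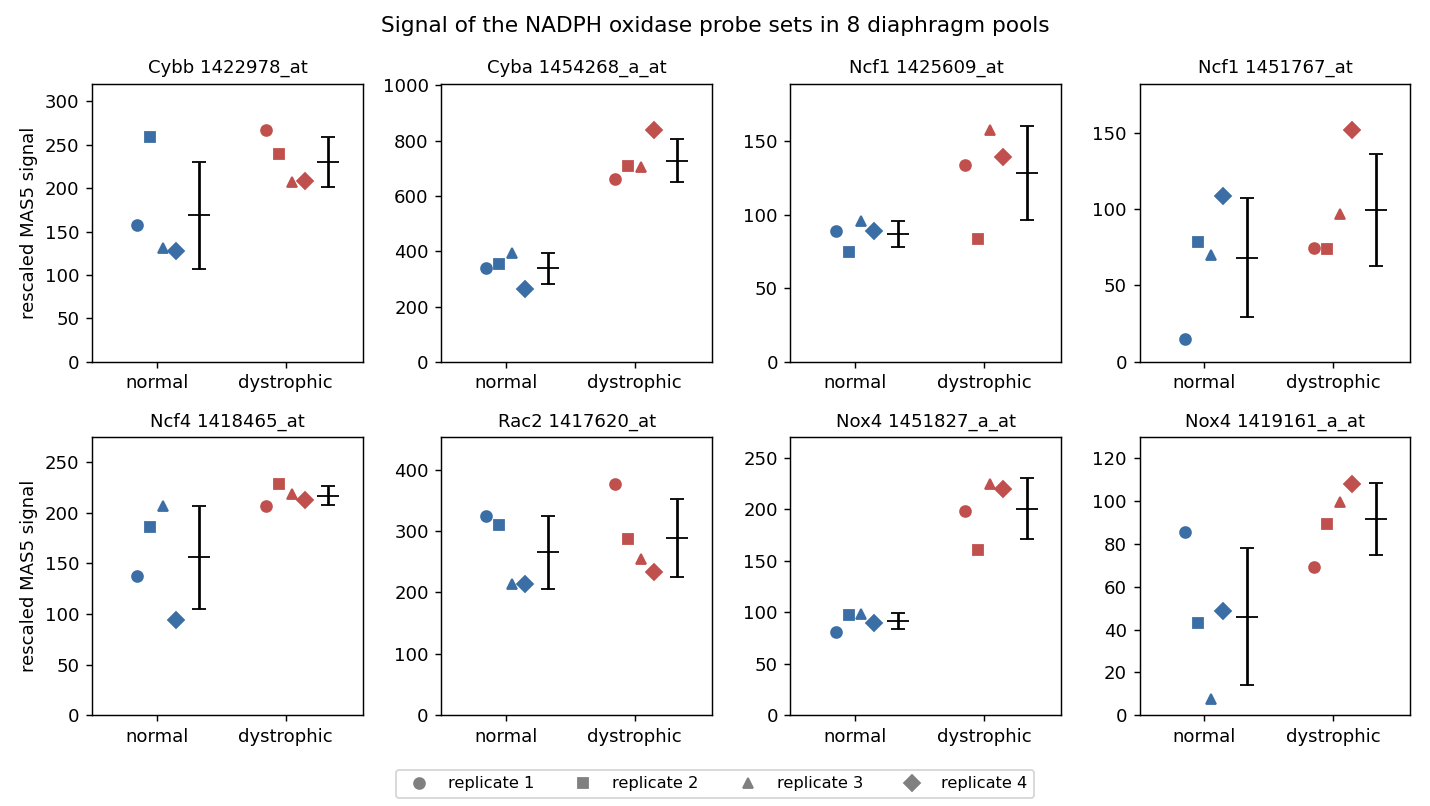
Rescaled MAS5 signal of the 8 probe sets in each pool, on linear axes from 0 that differ between panels. Marker shapes give the replicate number, and the bar to the right of each group gives the mean and SD of 4 pools. Cyba at 660.5 to 839 and the brighter Nox4 probe set at 161 to 225 in dystrophic pools lie well above their normal pools, while Cybb and Rac2 overlap between groups.

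Cyba, the membrane partner, was measured by 1454268_a_at. Its signals were 339.8, 355, 394 and 262 in normal replicates 1 to 4 and 660.5, 708, 706 and 839 in dystrophic replicates 1 to 4. Every dystrophic pool lay above every normal pool, as in 3.87% of all tested probe sets. Normal replicate 4 was lowest and dystrophic replicate 4 highest. The means were 338 ± 55.4 and 728 ± 76.9 (SD, n = 4), and on the log2 scale they differed by 1.08 (SE 0.15, limma adjusted p = 0.00883). By exact permutation, two-sided like all such tests here, p was 0.0286, the lowest value that 4 pools against 4 can reach. Without dystrophic replicate 4 the difference was 1.01 and the call was lost (limma adjusted p = 0.0501); in the other 7 fits that left out 1 array it held, with adjusted p of 0.0146 to 0.0359. Without dystrophic replicate 3, the pool rich in liver transcripts, it was 1.09.

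Nox4, the catalytic subunit of the other oxidase, was measured best by 1451827_a_at. Its signals were 81.1, 97.3, 98.1 and 89.5 in normal replicates 1 to 4 and 198, 161, 225 and 219.6 in dystrophic replicates 1 to 4. The groups did not overlap, with dystrophic higher, as in 3.87% of all tested probe sets. The lowest dystrophic pool, replicate 2, was well clear of the highest normal pool. The means were 91.5 ± 7.94 and 201 ± 29.2 (SD, n = 4), which differ by 1.01 in log2 (SE 0.18, limma adjusted p = 0.0327, exact permutation p = 0.0286). The call was lost in all 8 fits that left out 1 array, with differences of 0.95 to 1.10 and limma adjusted p of 0.0554 to 0.161, and with no filter on dim probe sets (adjusted p = 0.0844). Dystrophic replicate 2, whose summed hepatocyte signal of 1565 lay within the normal range, had a Nox4 signal of 161, the lowest of the dystrophic pools. Dystrophic replicate 3, the pool rich in liver transcripts, had the highest, 225. Without replicate 3 the difference was 0.95 (limma adjusted p = 0.145). The part of liver RNA in the Nox4 values of the dystrophic pools was not tested.

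The second Nox4 probe set, 1419161_a_at, gave signals of 85.5, 42.9, 7.41 and 48.5 in normal and 69.4, 89.1, 99.7 and 108 in dystrophic pools. Here the groups overlapped, since normal replicate 1 exceeded dystrophic replicate 1, and normal replicate 3 lay below the highest negative control. Its log2 difference was 0.96 (exact permutation p = 0.0571, interval by inversion of that test at the 95% level -0.25 to 2.41). The mean of both Nox4 probe sets, a measure added after the data had been seen, differed by 0.98 (exact permutation p = 0.0286). The sources used here do not say which Nox4 transcripts each probe set reads.

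The promoters of these 2 genes and a site at the start of Cybb are shown because Cyba and Nox4 were the members called and Cybb is the catalytic partner of Cyba in phagocytes. They come from RefSeq, assembly GRCm38.p6, where 4 of the 6 members had an entry (Cyba, Cybb, Ncf1 and Nox4). For Cyba (chr8:122432941-122433190, minus strand) and Nox4 (chr7:87246399-87246648, plus strand) the 250 bases before the annotated start are given, and capitals mark GGGCGG, the GC box bound by Sp1. For Cybb (chrX:9469300-9469329, minus strand) 30 bases around the start are given, and capitals mark GAGGAA, a core of PU.1 sites, and the Ets-IRF composite element (EICE), which overlap and both read on the opposite strand.
Cyba: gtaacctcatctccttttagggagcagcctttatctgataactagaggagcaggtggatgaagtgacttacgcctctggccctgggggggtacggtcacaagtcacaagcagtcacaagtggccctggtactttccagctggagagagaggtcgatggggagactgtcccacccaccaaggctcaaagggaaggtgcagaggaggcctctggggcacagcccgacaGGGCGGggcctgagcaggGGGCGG
Nox4: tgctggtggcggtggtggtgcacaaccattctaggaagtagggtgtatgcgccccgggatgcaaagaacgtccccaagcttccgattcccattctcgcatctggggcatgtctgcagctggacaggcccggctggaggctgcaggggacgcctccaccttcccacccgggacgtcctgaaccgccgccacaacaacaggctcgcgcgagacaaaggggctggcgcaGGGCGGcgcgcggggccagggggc
Cybb: gctgctgtTTTCATTTCCTCatcagaagaa
The Cyba window held 2 GC boxes, at bases -24 to -19 and -6 to -1 from the start, and the Nox4 window 1, also at bases -24 to -19. On either strand, GGGCGG was present in 32.7% of the 32851 promoter windows of that length, a motif chosen after these promoters had been read. Ncf1 held 1 and Cybb 0. GAGGAA and the EICE were not found before the start of any of the 4 genes, against 23.3% and 2.3% of all windows. In the full 300 bases of the table, which run 50 past the start, Cybb alone of the 4 held them, at bases 10 to 15 and 4 to 13, against 28.3% and 2.72% of all windows. TATAAA was in none of the 4 (12.4% of windows before the start). G and C made up 60% of the Cyba window, 67.2% of that of Nox4, 54.4% of that of Ncf1 and 34% of that of Cybb, with a median of 52.4% over all windows. These are descriptions of letters and show no binding.

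Cybb, the catalytic subunit of the phagocyte oxidase, did not pass the threshold. Probe set 1422978_at had signals of 157, 259, 131 and 128 in normal replicates 1 to 4 and 267, 239, 207 and 208 in dystrophic replicates 1 to 4. Normal replicate 2 stood among the dystrophic pools and the 3 other normal pools below all of them. The means were 169 ± 61.6 and 230.3 ± 28.7 (SD, n = 4), which differ by 0.46 in log2 (SE 0.22, limma adjusted p = 0.532). The exact permutation test gave p = 0.114, with a 95% interval of -0.31 to 0.98, which holds 0 and overlaps the interval of 0.72 to 1.62 for Cyba. The difference between Cybb and Cyba was not tested. Without normal replicate 2 the difference was 0.67 (limma adjusted p = 0.264). That pool had the highest summed signal of the normal pools for macrophage, hepatocyte and B cell markers alike. The part of any of these in its Cybb value was not tested.

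Ncf4, the cytosolic subunit that binds phosphoinositides on phagosomes, was measured by 1418465_at, with signals of 137, 185, 206 and 93.8 in normal and 207, 229, 219 and 212 in dystrophic pools. The dystrophic pools were close together and all above the normal pools, but only just: 206.4 in normal replicate 3 against 206.8 in dystrophic replicate 1. The means were 156 ± 50.4 and 217 ± 9.43 (SD, n = 4), and the log2 difference of 0.49 (SE 0.22) was not called (limma adjusted p = 0.509). The exact permutation test gave p = 0.0286. Groups that did not overlap, with dystrophic higher, occurred in 3.87% of all tested probe sets. Without normal replicate 4, the dimmest pool, the difference was 0.29 (limma adjusted p = 0.702).

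Ncf1, the organiser subunit whose phosphorylation starts assembly of the oxidase, was too dim to be tested by either of its probe sets. The brighter, 1425609_at, had signals of 89.2, 74.4, 95.7 and 88.8 in normal and 134, 83.3, 158 and 139 in dystrophic pools. Dystrophic replicates 1, 3 and 4 lay above all normal pools, and dystrophic replicate 2 lay within them. Its log2 difference was 0.46 (exact permutation p = 0.114, 95% interval -0.17 to 0.94). The other, 1451767_at, ran from 15.0 to 109 in normal and from 74.2 to 152 in dystrophic pools, with a difference of 0.57 (exact permutation p = 0.4). At this brightness a change of the size seen in Cyba could not be told from none by the latter probe set, whose interval was -0.47 to 2.44.

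Rac2, the GTPase of blood cells, had the smallest difference. Probe set 1417620_at had signals of 324, 309, 214 and 214 in normal and 377, 287, 255 and 233 in dystrophic pools. The groups overlapped throughout, and replicate 1 was highest in both. The means were 265 ± 59.8 and 288 ± 63.5 (SD, n = 4), which differ by 0.11 in log2 (SE 0.20, limma adjusted p = 0.908). The exact permutation test gave p = 0.571, with a 95% interval of -0.45 to 0.78. Without dystrophic replicate 1 the sign turned, to -0.017.

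**Figure D2:**
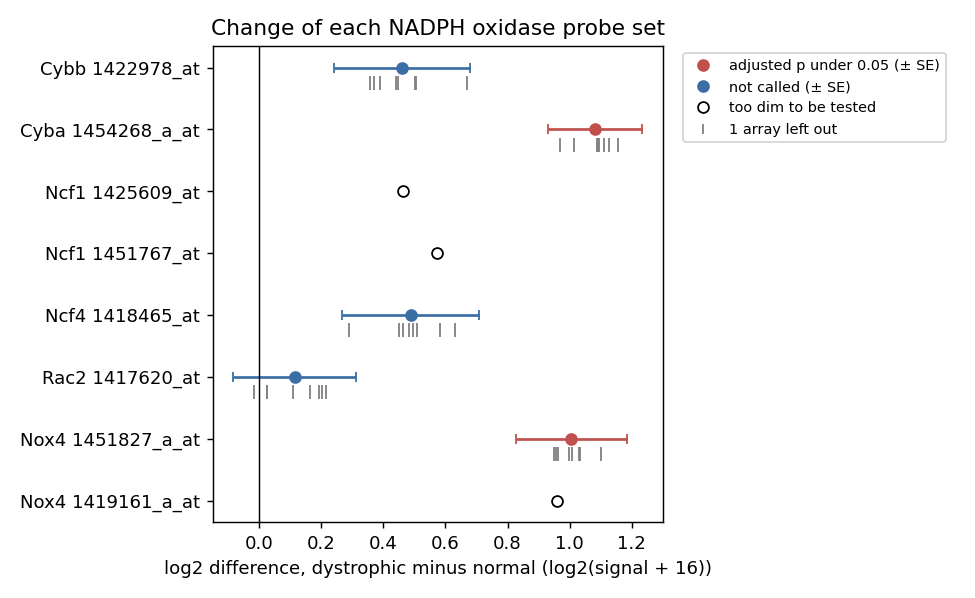
Log2 difference of each probe set, dystrophic minus normal, on the scale log2(signal + 16). Filled points with bars are limma estimates ± SE, open points are probe sets too dim to be tested, and grey ticks are the estimates with 1 array left out. Cyba at 1.08 and Nox4 at 1.01 were called, and Rac2 at 0.11 lies next to 0.

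The phagocyte subunits were set against Nox4 as a difference within each array, which no scaling of a whole array can move except through the offset. Each of 5 subunits was paired with the brighter Nox4 probe set, and the p-values are not adjusted over the 5 pairs. Relative to Nox4, Rac2 was lower in dystrophic than in normal pools by -0.89 on the log2 scale (exact permutation p = 0.0286, 95% interval -1.73 to -0.13). Ncf1, by its brighter probe set, was lower by -0.54 (exact permutation p = 0.0286, interval -0.95 to -0.15). For both pairs the dystrophic pools lay below all normal pools, as this lowest possible p implies. Neither gene was lower by itself, with log2 differences of 0.11 for Rac2 and 0.46 for Ncf1 against 1.01 for Nox4. The Nox4 probe set passed the filter through the dystrophic arrays, so these pairs are no support apart from its rise. Set against the dimmer Nox4 probe set, Rac2 was at -0.84 (exact permutation p = 0.114) and Ncf1 at -0.50 (exact permutation p = 0.429).

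The other pairs did not pass. Ncf4 was lower relative to Nox4 by -0.52 (exact permutation p = 0.0571, interval -1.01 to 0.41) and Cybb by -0.55 (exact permutation p = 0.143, interval -1.39 to 0.16). Cyba minus Nox4 was 1.71 ± 0.22 in normal and 1.78 ± 0.20 in dystrophic pools (SD, n = 4), a difference of 0.077 (exact permutation p = 0.686). Its interval, -0.29 to 0.64, bounds how unequal the rises of Cyba and Nox4 were. With an offset of 1 that difference was -0.0018, and with an offset of 64 it was 0.22 (exact permutation p = 0.171).

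**Figure D3:**
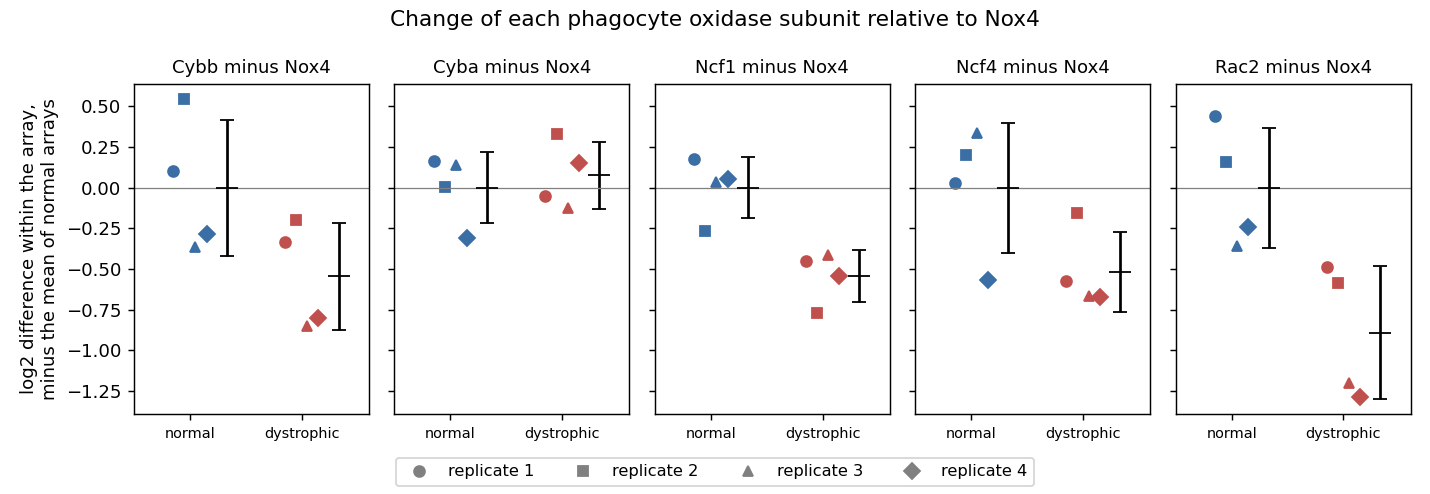
Log2 value of each phagocyte oxidase subunit minus that of the brighter Nox4 probe set in the same array, shifted so that the normal mean is 0. Bars give mean and SD of 4 pools. Rac2 was at -0.89 and Ncf1 at -0.54 relative to Nox4, since Nox4 rose more than either, while Cyba was at 0.077 with overlapping pools.

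Markers of macrophages and monocytes, the main cells of the phagocyte oxidase in tissue, were mostly higher in dystrophic pools. Of 15 tested, 14 lay above 0, against 47.7% of all tested probe sets. Cd163 was at -0.35, and the smallest rises were Cd14 at 0.080 and Mrc1 at 0.19. The summed signal of 17 markers was 8655 to 11507 in normal and 14236 to 16998 in dystrophic pools. Of 15 tested, 3 rose (Cd68, Mpeg1 and Ctss), 0 fell and 12 were not called, where 0.597% of all tested genes were called higher. Mpeg1 passed the filter through the dystrophic arrays (mean log2 value 7.06 in normal and 9.09 in dystrophic pools), so its call is no support in itself. The median log2 difference of these markers was 0.72 against -0.01 over all tested probe sets. The summed signal of neutrophil markers was 1175 to 1819 in normal and 919 to 1823 in dystrophic pools, and 0 of 5 tested were called. Their median was 0.15, with 3 of 5 above 0. Mmp9 alone, at -0.65, had a limma p under 0.05 before adjustment, against 9.72% of all tested probe sets in either direction. Camp, the dimmest of them, reached 30.6 in normal and 45.7 in dystrophic pools. T and NK cell markers were all too dim to be tested, and Cd3d, Cd4 and Nkg7 were at or below the negative control in every array.

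Within each array, the members were also set against the mean log2 value of the 15 tested macrophage markers, a comparison chosen after the data had been seen and 1 of 16 of its kind with the fibroblast one below, with no adjustment. Cyba rose more than the mean of these markers, by 0.37 (exact permutation p = 0.0286), from -0.36 ± 0.23 to 0.0096 ± 0.038 (SD, n = 4). Of the single markers, Mpeg1 and Ctss had larger log2 differences than Cyba, and the others had smaller ones. Against the same mean, Cybb differed by -0.25 (exact permutation p = 0.286), Ncf4 by -0.23 (exact permutation p = 0.314) and Rac2 by -0.60 (exact permutation p = 0.0857). The brighter probe sets of Ncf1 and Nox4 differed by -0.25 (exact permutation p = 0.343) and 0.29 (exact permutation p = 0.0857).

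Fibroblast markers, of a cell type that can carry Nox4, were also higher, with a summed signal of 27765 to 34730 in normal and 42077 to 53522 in dystrophic pools. Of 9 tested, 3 rose (Col1a2, Lum and Postn), 0 fell and 6 were not called, where 0.597% of all tested genes were called higher. The median of the 9 was 0.66. Relative to the mean of these 9 markers in the same array, Nox4 differed by 0.13 (exact permutation p = 0.457) and Cyba by 0.21 (exact permutation p = 0.2). Endothelial markers had a median of -0.27, and limma called 0 of 6. Before adjustment 1 passed at 0.05, against 9.72% of all tested probe sets in either direction. Smooth muscle markers had a median of 0.087, and limma called 0 of 3 (0 before adjustment, at 0.05). The part of any of these cell types in the rises of Cyba and Nox4 was not tested.

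Other genes of the oxidases gave no call. Of 16 listed, 9 had a probe set and 4 were tested. limma called 0 of 4 (0 before adjustment), and the median was -0.06. Rac1, the GTPase that serves in place of Rac2 in most cells, had 7615 ± 1108 in normal and 7025 ± 282 in dystrophic pools (SD, n = 4; log2 difference -0.11, limma adjusted p = 0.852). Rap1a, a GTPase that copurifies with the flavocytochrome, had a difference of -0.0090 (limma adjusted p = 0.991), which changed sign in several alternatives.

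Among genes upstream of the phagocyte oxidase, mainly receptors and kinases and not all of them activators, 25 of 29 had a probe set and 19 were tested. limma called 0 of 19 (4 before adjustment, all higher, against 5.6% of all tested probe sets with p under 0.05 and dystrophic higher). These 4 included Fcgr2b, an inhibitory receptor, and Fcer1g. Fcer1g passed the filter through the dystrophic arrays (mean log2 value 6.65 in normal and 8.06 in dystrophic pools). Of the 19 tested, 17 lay above 0, against 47.7% of all tested probe sets, and the median was 0.17. The brightest were Arhgdib, an inhibitor that holds Rac in the cytosol, at 0.20 (SE 0.15, limma adjusted p = 0.727), and Fcgr2b, the inhibitory IgG receptor, at 0.50 (SE 0.17, limma adjusted p = 0.301). Of 6 tested transcription factors of phagocytes limma called 0 (0 before adjustment), with a median of 0.23. Their brightest were Cebpb at -0.048 (limma adjusted p = 0.964) and Irf1 at 0.051 (limma adjusted p = 0.952), both of which changed sign in some fits. Of 8 tested genes that remove superoxide and peroxide limma called 0, with a median of -0.10. Before adjustment 2 passed, in opposite directions (Gpx1 at 0.33 and Txnrd1 at -0.38), against 9.72% of all tested probe sets in either direction. Gpx3, a secreted glutathione peroxidase, was at 0.10 (limma adjusted p = 0.948) and the mitochondrial dismutase Sod2 at -0.23 (limma adjusted p = 0.674).

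**Figure D4:**
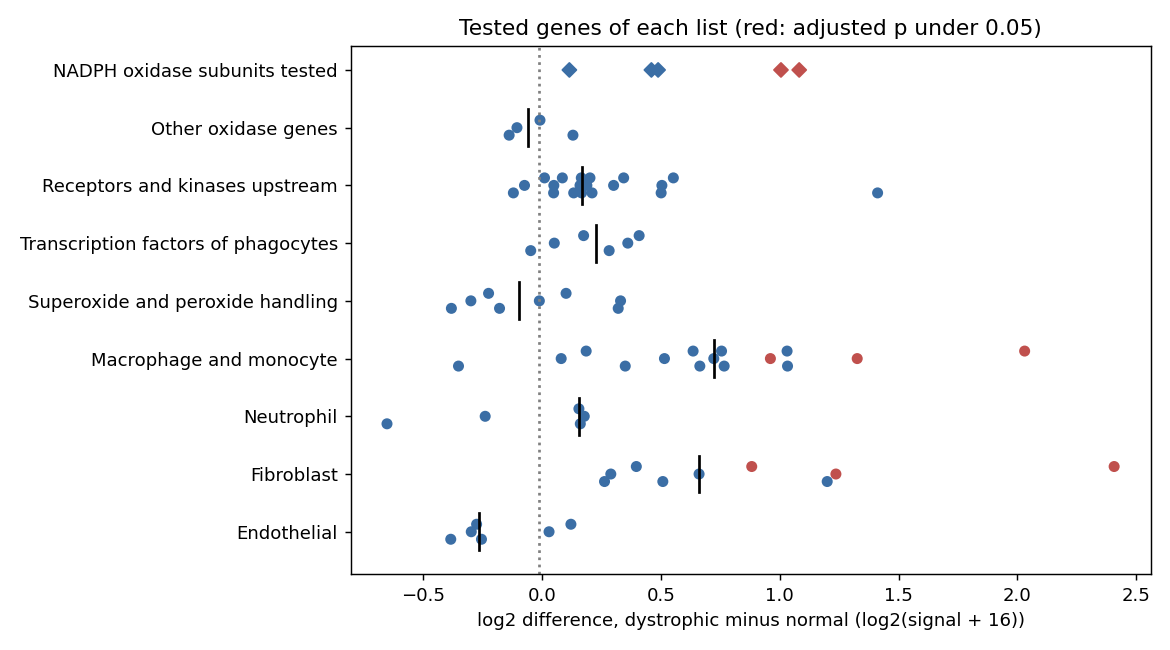
Log2 difference, dystrophic minus normal, of every tested gene of the lists named at the left (1 probe set a gene), with each list's median as a black bar except for the oxidase subunits, called genes in red and the median of all tested probe sets, -0.01, as a dotted line. The 5 tested oxidase probe sets (diamonds) span 0.11 to 1.08, and macrophage and fibroblast markers have medians of 0.72 and 0.66.

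The genes whose log2 values ran most like those of each subunit over the 8 arrays were ranked by Pearson correlation among 8213 genes, as a description. The arrays share the 2 groups, so a gene that rose in dystrophic pools correlates with any other that did. For Cyba the closest were Dsp (r = 0.98), Cstb (0.98), Myl4 (0.97), Serpinb8 (0.97) and Lum (0.97). For Nox4 they were Dclk1 (r = 0.99), Myl4 (0.98), Myh3 (0.98), Timp1 (0.98) and Dsp (0.97). For Cybb they were Slc35a2 (r = 0.96), Apobec1 (0.93), Cpsf7 (0.93), Gmppb (0.92) and Prpf39 (0.92), of which 0 were called by limma. Cyba and the brighter Nox4 probe set correlated at 0.94 over the 8 arrays, and at 0.32 once each group's mean was removed. Cybb and Rac2 correlated at 0.69 and 0.73 on the same measures, and Cyba and Ncf4 at 0.81 and 0.82. The brighter probe sets of Ncf1 and Nox4 correlated at 0.83 and 0.77. Pairs of phagocyte subunits also went the other way. Cybb and the brighter Ncf1 probe set were at 0.20 and -0.44, and Rac2 and the dimmer Ncf1 probe set at -0.50 and -0.68. These are only some of the pairs among the 8 probe sets.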

How the data were processed

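Diaphragm RNA from 4 normal and 4 dystrophic pools, each of 3 mice, was measured on 8 Affymetrix arrays. The authors deposited 1 table of intensity values (MAS5 signals on a linear scale, per the submitters' processing notes) with 22626 probe sets besides 64 controls. Detection calls were not used here, and the MAS5 version is not given in the sources used. Deposited 2% trimmed means were 500.2 on 7 arrays and 400.2 on normal replicate 4, so each array was rescaled to their mean, 487.7. Tests used log2(signal + 16), without controls and the lowest 40% by mean log2 value, with limma 3.58.1 in R 4.3.3 (intensity trend, Benjamini-Hochberg over 13575 probe sets, threshold 0.05). Dim probe sets are noisy under MAS5, and the number of arrays limits precision. Intervals invert the exact permutation test over the 70 splits of 4 against 4.

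Symbols come from the platform annotation, updated by Entrez identifier in a RefSeq table (20351 of 20380 matched). For a listed gene, the brightest of its probe sets was taken. Named genes are all members, the called genes of each pathway list (up to 6) or its 2 brightest tested ones, Rac1, Lama2 and the 5 genes most like Cybb, Cyba and Nox4. Others named were chosen after their values were seen. The members and lists were chosen with earlier results of these data known. Poly-A spike-in controls, added before labelling, split the arrays into 3 sets by gaps over 0.5 in log2 geometric mean: replicate 1, replicate 3, and replicates 2 and 4 of both groups. Alternatives were offsets of 1 and 64, other scalings, filters and priors, array weights, blocks for replicate number and spike-in set, and arrays left out. The fit was tested on simulated data. Figures used matplotlib 3.10.9 in Python 3.11.15.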

Additional observations from a re-analysis of the deposited data

Results flagged for a closer look

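Cebpb had a signal of 2217 in dystrophic replicate 1, far below the 3168 to 3330 of the other 3 dystrophic pools, with a gap of 0.855 of the group's range. It was the only 1 of 34 groups of 4 pools checked (the members and the named genes, in each group) in which 1 pool stood so far apart; chance gives about 1 in 20. Without that pool the Cebpb difference was 0.088 in place of -0.048, and neither was called by limma (adjusted p = 0.908 and 0.964).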

How the results depend on the processing

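The called probe sets numbered 67, and 127 with array weights, 105 with the replicate block, 114 with the spike-in set as a block, 31 without normal replicate 4 and dystrophic replicate 3, 24 at a threshold of 0.01, and 25 to 61 with 1 array left out. Of the members, 2 were called, and 1 (Cyba) with no filter, without normal replicate 4 and dystrophic replicate 3 and at 0.01. With the lowest 60% left out, Cyba was the only member tested, and it was called. The number of members called with 1 array left out was 0 to 1, the 0 without dystrophic replicate 4. The replicate block kept both member calls (limma adjusted p = 0.0248 for Cyba and 0.0493 for Nox4). The main fit and the exact tests did not take the numbers as pairs. Same-numbered arrays deviated together at a correlation of 0.48 for number 1 and of -0.046 to 0.145 for the others. The spike-in sets did follow the replicate numbers, and shared handling by number was not tested. Within the spike-in sets of replicates 2 and 4, 3 and 1, Cyba differed by 1.29, 0.82 and 0.93 and the brighter Nox4 probe set by 0.90, 1.08 and 1.14. The dimmer Nox4 probe set differed by 0.89, 2.31 and -0.25. The sets of replicate 3 and of replicate 1 hold a single array of each group. Cyba minus Nox4 was -0.0018 with an offset of 1 and 0.22 with an offset of 64. Against the dimmer Nox4 probe set, Ncf1 was at -0.50 and Rac2 at -0.84, neither passing. The sign turned for Rap1a with the values as deposited (0.071) and without normal replicate 4 and dystrophic replicate 3 (0.062), and for Cebpb with the values as deposited (0.032; it was -0.22 without those 2 arrays). With 1 array left out the differences ran from -0.059 to 0.038 for Rap1a, -0.17 to 0.11 for Cebpb, -0.041 to 0.15 for Irf1, -0.12 to 0.35 for Gpx3 and -0.017 to 0.21 for Rac2. Except for Nox4 and Cyba as given, Rac1, Rap1a, Arhgdib, Fcgr2b, Cebpb, Irf1, Gpx3, Sod2, Lama2 and the other members stayed on its side of the threshold in every fit that tested it. The cause of these shifts was not tested. An exact test of 4 against 3 arrays cannot go below p = 0.0571, nor 4 paired differences below 0.125. Both Ncf1 probe sets and the dimmer Nox4 probe set were too dim for limma except with no filter, where adjusted p was 0.672, 0.820 and 0.577.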

Other observations

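Some genes near the oxidases had large differences without a call, and are given as values chosen after they were seen. Fcer1g, the signalling chain shared by activating Fc receptors, was at 93.7 ± 48.7 in normal and 257 ± 66.7 in dystrophic pools (SD, n = 4; log2 difference 1.41, limma adjusted p = 0.125), and it passed the filter through the dystrophic arrays. Duoxa1, the maturation factor of the dual oxidases, was too dim for limma, with 49.7 ± 36.0 in normal and 125 ± 30.8 in dystrophic pools (SD, n = 4; log2 difference 1.22, exact permutation p = 0.0571). Markers of B cells had a median of -0.026 and those of mast cells -0.020, and limma called 0 of 2 and 0 of 3 (0 and 0 before adjustment, at 0.05).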
